A study of Mus musculus with 6 samples.

Results

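Connexins are the subunits of gap junctions, and pannexins are related channel proteins of single membranes. The 9 genes described here are 7 connexins (Gja1, Gjb6, Gjb2, Gjb1, Gjc3, Gja4 and Gjd2) and 2 pannexins (Panx1 and Panx2). They were chosen by gene symbol from the 24419 symbols of the deposited expression table, because each has a known source among astrocytes, oligodendrocytes, vessels or neurons; all 9 symbols were found. Of the 9, 8 had a mean of at least 1 CPM (counts per 1e6 reads, scaled by the authors with a factor for each library) over the 6 libraries and entered the test with 14523 genes in all, and Gjd2 did not.

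The libraries came from male wild type C57BL/6N mice whose middle cerebral artery was occluded for 60 min. The mice received vehicle or 15-HETrE, a hydroxylated fatty acid, by vein on 3 occasions, 24, 48 and 72 h from the onset of the stroke, as 600 ng in 150 µL of PBS. On day 4 the cortex around the infarct was dissociated with pronase, and cells carrying Thy1 on their surface but not ACSA2, CD31, CD45 or O4 were sorted as a population enriched in neurons. Each treatment has 3 libraries, all from mice with the occlusion and the same sort. The age of the mice, and whether a library stands for 1 animal or a pool, are not given in the labels, so the p-values rest on the spread among these 6 libraries, part or all of which may be technical. The deposited column names identify vehicle 1, vehicle 2 and 15-HETrE 1, which share a name prefix. A further column, called 15-HETrE unnumbered here, has a prefix of its own, and 1 column of each treatment is named combined. What the prefixes and that word stand for is not stated.

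Depth ran from 5405245 reads in vehicle combined to 22558400 in vehicle 1, and both combined libraries were the shallowest. The sort removed cells carrying the astrocyte, endothelial, leukocyte and oligodendrocyte-lineage antigens, but transcripts of glia and of the vessel wall were present. All 8 pan-neuronal markers were read in every library, at a mean log2(CPM + 1) of 6.78 to 7.58 in vehicle and 7.78 to 8.37 in 15-HETrE libraries. All 10 oligodendrocyte markers were read as well, at 9.19 to 9.77 and 9.25 to 10.4. All 10 astrocyte markers were read, at 5.12, 5.66 and 7.92 in vehicle 2, 1 and combined, and at 5.96, 6.71 and 8.96 in 15-HETrE unnumbered, 1 and combined. Both combined libraries thus stood above the other 4 in astrocyte transcripts. Fibroblast markers stood at 7.36 and 7.27 in vehicle 1 and 2, at 5.12 in 15-HETrE unnumbered, and between 2.62 and 3.38 in the other 3 libraries. These lists hold different genes, so their levels do not compare shares of cells, and in such bulk libraries fewer cells of a type and less RNA per cell cannot be told apart.

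As background, connexins form rings in the membrane that dock with rings of the neighbouring cell, and the joined pore lets ions and small metabolites pass. Astrocytes are coupled into networks in this way and share potassium, glutamate and glucose products, and oligodendrocytes are joined to astrocytes and across their own myelin layers. Undocked connexin rings and pannexin channels can open to the outside and release ATP, a signal for which brain injury is well known. Purinergic receptors read that signal, and enzymes on the cell surface turn it into adenosine.

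The question was whether channel transcripts differ with 15-HETrE in cells sorted from the peri-infarct cortex. None of the 8 genes tested passed the adjusted threshold of 0.05 (limma, adjusted over all 14523 genes; smallest adjusted p among the 8, 0.422). Over all genes the share called was also 0%, by limma and by edgeR on the recovered reads; DESeq2 called 1.14% of all genes and 0 of the 7 members to which it gave a p (Gjb6 had none). At an unadjusted p under 0.05, limma had 2 of the 8, where 9.5% of all genes met that level: Panx2, higher (4.27% of all genes), and Gja4, lower (5.23%). At the same level edgeR had 1 of the 8, Panx2, against 8.48% of all genes. Panx2 was the only one of the 8 whose 15-HETrE libraries all lay above the vehicle libraries (6.84% of all genes), and Gja4 the only one whose 15-HETrE libraries all lay below (8.32% of all genes). Without both combined libraries 5 of the 7 genes then tested did not overlap, 3 above and 2 below, where 21.2% and 25.8% of all genes did so. Fitted differences of the 8 ran from -2.32 for Gja4 to 1.43 for Panx2 on the log2(CPM + 1) scale, with a median of 0.17 against 0.02 over all genes; 5 were above 0 and 3 below.

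**Figure D1:**
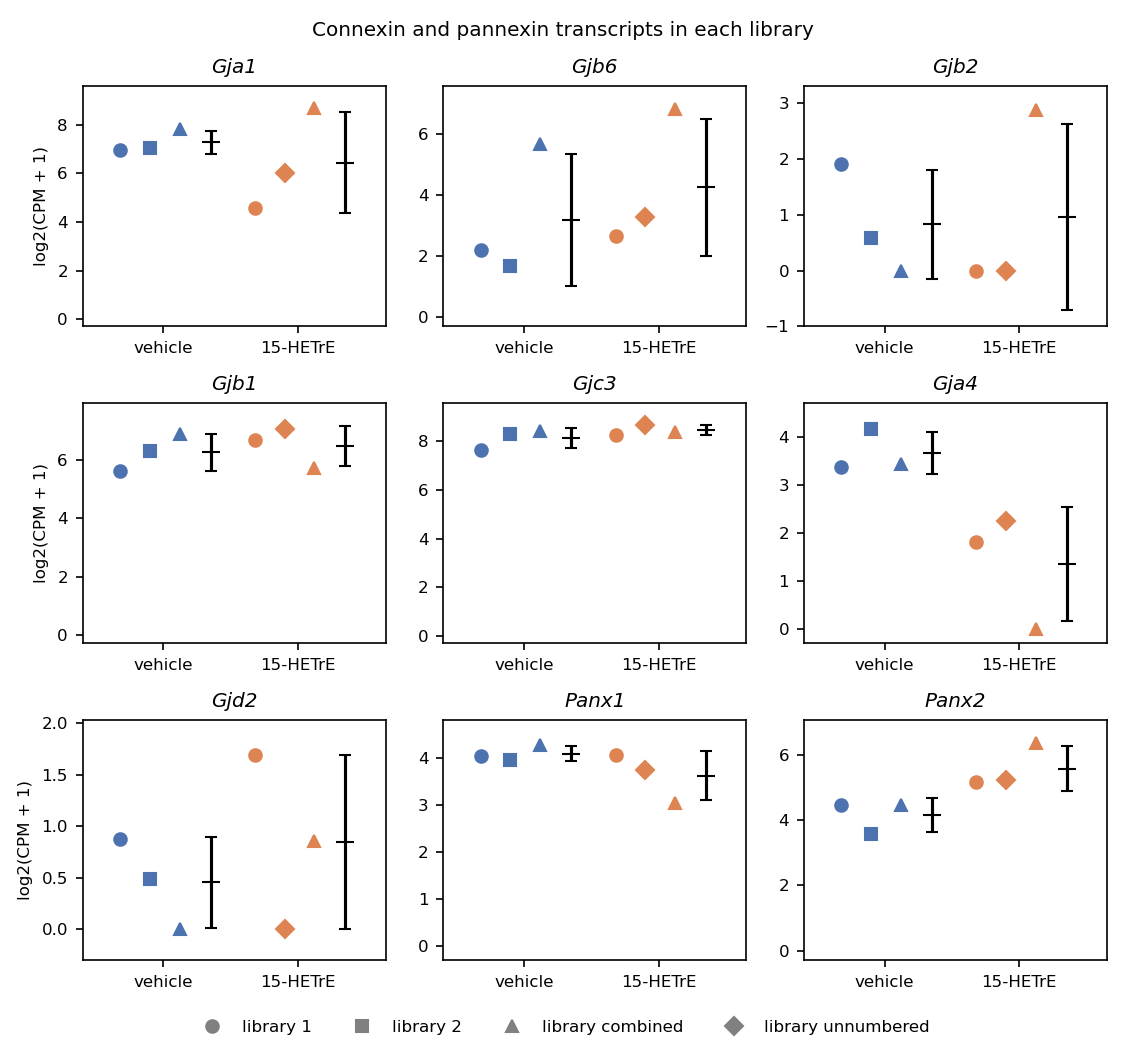
Level of each of the 9 genes on the log2(CPM + 1) scale in 3 vehicle libraries (blue) and 3 15-HETrE libraries (orange); symbols give the library's name and the black bars the mean and SD over the 3 libraries of a group. Panx2 lies higher and Gja4 lower in all 15-HETrE libraries, while Gja1 and Gjb6 are highest in the combined library of each group.

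Per length, Gjc3 had the highest mean level and was highest in 5 of 6 libraries; in 15-HETrE combined Gja1 stood above it. Taking CPM per kb of the longest coding transcript, the mean over the 6 libraries was 79.5 for Gjc3, 56.0 for Gjb1, 51.5 for Gja1, 14.6 for Gjb6, 10.1 for Panx2, 4.23 for Gja4, 2.45 for Panx1, 0.665 for Gjb2 and 0.248 for Gjd2. Gjc3 stood above Gjb1 in each of the 6 libraries, with Gjb1 to Gjc3 ratios from 0.392 to 0.878. Gjb1 and Gja1 do not differ beyond their spread, since Gja1 ran from 7.27 to 130 CPM per kb and Gjb1 from 30.6 to 84.6. Gjb6 stayed below Gja1 in each library. Gjb6 and Panx2 changed order from library to library, and Panx2 stood above Panx1 in all 6. These orders by library rest on the longest coding transcript. The annotation of Gja1 holds long non-coding isoforms, with 3182 bases in that transcript and 10257 over all annotated exons. Per kb of all annotated exons, the means were 73.0 for Gjc3, 52.0 for Gjb1, 15.98 for Gja1 and 11.5 for Gjb6. On that measure Gja1 stood below both Gjb6 and Gjc3 in 15-HETrE combined.

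Gja1 and Gjb6 encode the main pair of astrocyte connexins; Gja1 is also made by fibroblasts of the meninges and by vascular cells. The data placed them apart, as Gja1 was read well in every library and Gjb6 mainly in the combined pair. The stretches below are the 100 bases before the RefSeq start of each gene (GRCm38.p6) and are shown because these genes, both known from astrocytes, followed different profiles. Gja1 lies at chr10:56377200-56377299 on the plus strand and Gjb6 at chr14:57133612-57133711 on the minus strand; the capitals mark an AP-1 motif, TGANTCA.
Gja1: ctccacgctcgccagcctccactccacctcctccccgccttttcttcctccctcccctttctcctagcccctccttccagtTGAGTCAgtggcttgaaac
Gjb6: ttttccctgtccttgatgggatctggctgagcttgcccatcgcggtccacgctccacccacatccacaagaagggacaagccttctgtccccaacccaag
On both strands, TGANTCA stands in 7.81% of 32851 windows of RefSeq starts (250 bases before to 50 after), and of the members it was found in the window of Gja1 alone. The Gjb6 window held none of the 8 motifs searched, which says only that these letters are not there.

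Gja1 (chromosome 10, 56377330 to 56402513, GRCm38) stood at 125, 131 and 225 CPM in vehicle 1, 2 and combined. In 15-HETrE 1, unnumbered and combined it stood at 23.1, 64.4 and 414 CPM. The 15-HETrE libraries thus held both the lowest and the highest value, 17.9-fold apart, and the vehicle libraries lay between them. The group means were 160 ± 56.0 and 167 ± 215 CPM (SD, n = 3 each), while the fitted difference on the log2 scale was -0.84 (SE 0.80, 95% interval -2.63 to 0.95, adjusted p 0.757, limma). Means in CPM and on the log scale therefore differ in sign. Within the first prefix 15-HETrE 1 differed from the mean of vehicle 1 and 2 by -2.42 on the log2 scale, whereas the combined libraries differed by 0.88, with 15-HETrE above. Without 15-HETrE 1 the difference was 0.08, and without 15-HETrE combined -1.97.

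Beside these values, 10 of 10 astrocyte markers were higher in the 15-HETrE mean and 8 of 9 fibroblast markers were lower. The summed CPM of the astrocyte list ran from 778 to 8358 in vehicle and from 1551 to 21895 in 15-HETrE libraries, and that of the fibroblast list from 112 to 8279 and from 62.2 to 1323; no marker of either list was at 0 in any library. Gja1 minus the mean astrocyte level was 1.32 and 1.93 log2 units in vehicle 1 and 2, the libraries with the most fibroblast transcripts. It was -0.10 in vehicle combined, -2.12 in 15-HETrE 1, 0.07 in 15-HETrE unnumbered and -0.26 in 15-HETrE combined. The part of either cell type in the values of Gja1 was not tested.

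Gjb6 (chromosome 14, 57123303 to 57133611) stood at 3.60, 2.20 and 50.5 CPM in vehicle 1, 2 and combined and, in 15-HETrE 1, unnumbered and combined, at 5.37, 8.83 and 114 CPM. Both combined libraries lay far above the other 4, in either treatment. The 2 lower libraries of each group gave 49 to 148 reads, so these low levels were still counted. The fitted difference was 1.08 (SE 1.22, 95% interval -1.63 to 3.79, adjusted p 0.797, limma), and the groups overlapped. It was 0.73 in the first prefix and 1.15 in the combined pair, beside astrocyte list differences of 1.32 and 1.04. Without 15-HETrE combined the fitted difference was -0.20. As a level per kb, the ratio of Gjb6 to Gja1 was 0.0435 and 0.0254 in vehicle 1 and 2, 0.340 in vehicle combined, and 0.351, 0.207 and 0.414 in 15-HETrE 1, unnumbered and combined. Vehicle 1 and 2 thus stood below the other 4 libraries in this ratio, among them vehicle combined. The ratio uses the longest coding transcript of each gene.

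**Figure D2:**
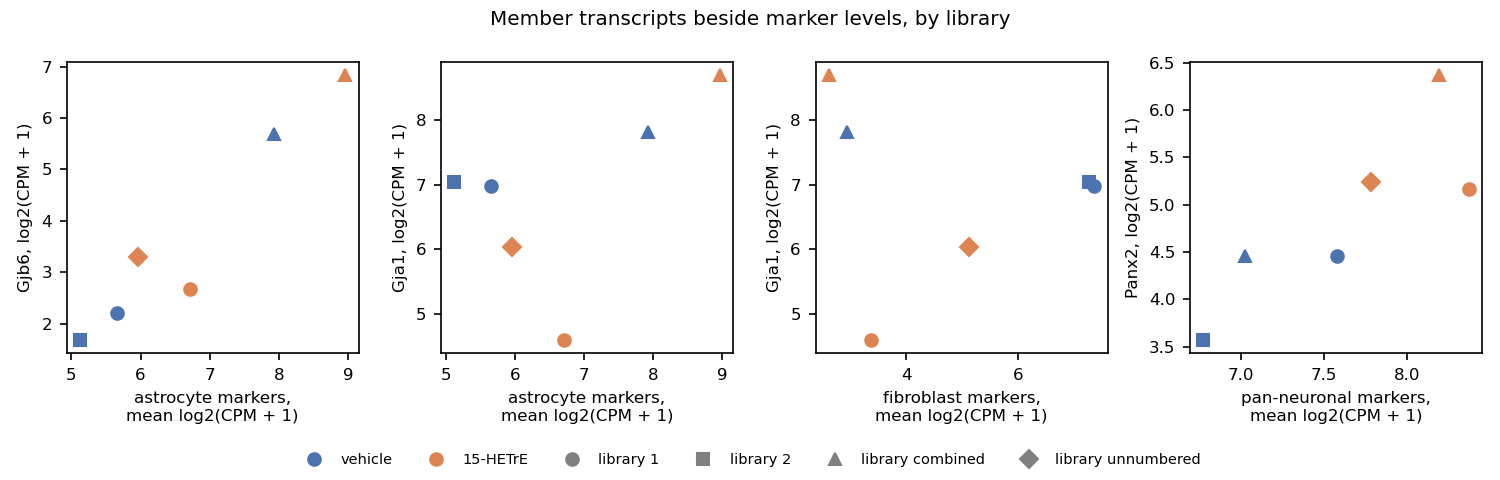
Level of Gjb6, Gja1 (in 2 panels) and Panx2 on the vertical axes against the mean level of a marker list on the horizontal axes, all on the log2(CPM + 1) scale, with 1 point a library. The Gjb6 points are low to high roughly in the order of the astrocyte markers, whereas Gja1 stands at 125 and 131 CPM in vehicle 1 and 2, where astrocyte markers are lowest and fibroblast markers highest.

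Gjb2 encodes a connexin of astrocytes and of meningeal fibroblasts and is known for its role in hearing. It neighbours Gjb6 on chromosome 14 (57098600 to 57104702), with 18600 bases between them. It was read in 3 of 6 libraries, at 2.76 and 0.495 CPM in vehicle 1 and 2 and at 6.35 CPM in 15-HETrE combined, from 59, 11 and 47 reads. Vehicle combined, 15-HETrE 1 and 15-HETrE unnumbered had 0 reads, which allows up to 0.540, 0.137 and 0.179 CPM at a floor of 3 counts. Both genomic neighbours were read in vehicle 1, vehicle 2 and 15-HETrE combined, and each was highest in 15-HETrE combined. In the other 3 libraries Gjb6 had 118 to 281 reads and Gjb2 had none. The fitted difference of Gjb2 was 0.13 (adjusted p 0.971, limma), with a 95% interval from -2.01 to 2.27.

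Gjc3 and Gjb1 encode connexins of oligodendrocytes, where Gjb1 joins layers of myelin; loss of Gjb1 in people causes a neuropathy. The stretches below are shown because the pair had the highest mean levels per length of the 9 genes and both hold the SOX core ACAANG, a motif read by the SOX factors of glia. Gjb1 is given for the 100 bases before the start nearest its coding exon, chrX:101383632-101383731 on the plus strand. Gjc3 is given from 200 bases before its start, chr5:137963199-137963298 on the minus strand (both GRCm38.p6); the capitals mark the motif on either strand.
Gjb1: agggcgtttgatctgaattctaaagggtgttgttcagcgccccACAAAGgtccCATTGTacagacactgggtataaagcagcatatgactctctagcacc
Gjc3: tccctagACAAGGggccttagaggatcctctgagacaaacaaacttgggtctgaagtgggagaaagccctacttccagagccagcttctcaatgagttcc
The Gjb1 stretch holds 2 cores, 1 on each strand, and a TATA box (TATAAA) after them. The core is common, standing in 41.2% of all windows, and was found for Gjb1, Gjc3 and Panx1 among the 8 members that matched a window. These 8 members had 11 windows, of which Gjb1 had several, so the count by gene does not compare directly with the share by window. Panx2 had no window.

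Gjc3 (chromosome 5, 137953461 to 137963098) had the smallest spread of the glial connexins. It stood at 200, 317 and 341 CPM in vehicle 1, 2 and combined and, in 15-HETrE 1, unnumbered and combined, at 308, 407 and 335 CPM, from 1898 to 7052 reads. The groups overlapped, and only vehicle 1 lay apart at the low end. The fitted difference was 0.32 (SE 0.27, adjusted p 0.728, limma), with a 95% interval of -0.29 to 0.92. Without vehicle 1 the difference was 0.08, and without both combined libraries 0.49. Within the first prefix it was 0.29 and in the combined pair -0.03, beside oligodendrocyte list differences of -0.23 and 0.07.

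Gjb1 (chromosome X, 101376378 to 101385629) ran lower and wider, at 48.5, 77.9 and 119 CPM in vehicle 1, 2 and combined. In 15-HETrE 1, unnumbered and combined it stood at 102, 134 and 51.9 CPM. The groups overlapped throughout, with a fitted difference of 0.22 (SE 0.41, 95% interval -0.70 to 1.14, adjusted p 0.888, limma). It turned to -0.10 with a term for the name prefix, to -0.11 without vehicle 1 and to -0.08 without 15-HETrE unnumbered, and was 0.60 without 15-HETrE combined. The differences within the 2 name sets had opposite signs, 0.71 in the first prefix and -1.18 in the combined pair. Of the oligodendrocyte markers, 9 of 10 were higher in the 15-HETrE mean, with a summed CPM of 15414 to 23172 in vehicle and 16737 to 32585 in 15-HETrE libraries; their part in the levels of Gjb1 and Gjc3 was not tested.

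Gja4 encodes a connexin of arterial endothelium and of mural cells, where it couples the vessel wall. It stood at 9.44, 17.1 and 9.89 CPM in vehicle 1, 2 and combined (chromosome 4, 127311421 to 127314039), from 202, 381 and 55 reads. In 15-HETrE 1, unnumbered and combined it stood at 2.50, 3.76 and 0 CPM, from 55, 63 and 0 reads, and a count of 0 there allows up to 0.405 CPM. All 15-HETrE libraries lay below all vehicle libraries, and the group means were 12.2 ± 4.32 and 2.09 ± 1.91 CPM (SD, n = 3 each). The fitted difference was -2.32 (SE 0.73, 95% interval -3.94 to -0.69, unadjusted p 0.00970, adjusted p 0.425, limma). It was -1.97 in the first prefix, -3.45 in the combined pair and -1.64 without 15-HETrE combined, the library at 0; the signs within the prefixes are fixed by the lack of overlap. With library weights, an alternative under which limma called 16.7% of all genes, the adjusted p was 0.00604.

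Markers of vascular cells, which were not tested as lists, are given beside Gja4. Of the mural markers 6 of 7 were lower in the 15-HETrE mean, with a list level of 6.07 to 6.93 in vehicle and 4.70 to 6.15 in 15-HETrE libraries and none at 0 anywhere. Of the endothelial markers 5 of 8 were lower, at 2.80 to 3.30 and 2.41 to 3.19. The 4 markers of arterial endothelium lay at 1.57 to 2.30 and at 1.099 to 1.53, but only Efnb2 was read in every library, and Bmx, Sema3g and Gkn3 were each at 0 in some. The difference of list means was -1.04 for mural, -0.34 for endothelial and -0.51 for arterial markers, on the scale on which Gja4 differed by -2.32. Gja4 minus the mean endothelial level was 0.59, 0.88 and 0.18 in vehicle 1, 2 and combined and -0.60, -0.94 and -2.75 in 15-HETrE 1, unnumbered and combined. It did not overlap between the groups, as Gja4 itself did not. The endothelial list was read low, with Cldn5 at 0.180 to 4.42 CPM and Tek at 0 in 15-HETrE unnumbered. Cdh5, its highest gene in vehicle 1 and 2, stood at 116 and 161 CPM there and at 3.11 to 37.6 CPM elsewhere. Gja4 minus the mural or the arterial level did overlap between the groups. The part of vascular cells in the level of Gja4 was not tested.

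**Figure D3:**
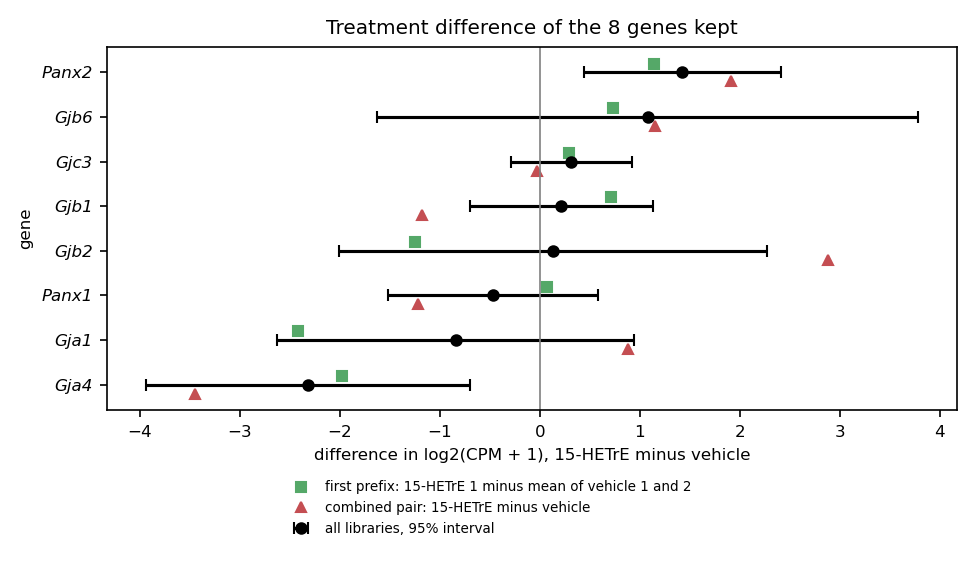
Difference in log2(CPM + 1), 15-HETrE minus vehicle, for the 8 genes tested, with the 95% interval of the fit over all libraries (black), the difference within the first prefix (green squares) and that in the combined pair (red triangles). The intervals of Panx2 and Gja4 do not reach 0 before adjustment, and the green and red points lie on opposite sides of 0 for Gjc3, Gjb1, Gjb2, Panx1 and Gja1.

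Gjd2 encodes the connexin of electrical synapses between neurons, best known from parvalbumin interneurons. It was read at 0.841 and 0.405 CPM in vehicle 1 and 2, at 2.23 CPM in 15-HETrE 1 and at 0.811 CPM in 15-HETrE combined. These levels came from 18, 9, 49 and 6 reads, and the remaining libraries had 0. With a mean of 0.715 CPM it stayed under the filter and was not tested. The interneuron markers, 7 of 7, were read in every library, at a list level of 4.33 to 4.89 in vehicle and 4.77 to 5.29 in 15-HETrE libraries. Gjd2 (chromosome 2, 114009601 to 114013619) shares 57 exonic bases with A530058N18Rik on the other strand, whose reads could not be told apart if the counting ignored strand.

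Panx2 encodes a pannexin known mainly from neurons, and had the smallest unadjusted p of the 8 genes. It stood at 21.0, 10.9 and 21.0 CPM in vehicle 1, 2 and combined (chromosome 15, 89059734 to 89073567), from 450, 242 and 117 reads. In 15-HETrE 1, unnumbered and combined it stood at 34.8, 36.8 and 81.8 CPM, from 765, 616 and 605 reads. All 15-HETrE libraries lay above all vehicle libraries, with means of 51.1 ± 26.6 against 17.7 ± 5.86 CPM (SD, n = 3 each). The fitted difference was 1.43 (SE 0.44, 95% interval 0.44 to 2.41, unadjusted p 0.00918, adjusted p 0.422, limma). It was 1.15 in the first prefix and 1.91 in the combined pair, with signs fixed by the lack of overlap. Leaving out 1 library at a time gave 1.04 to 1.64. With library weights, under which limma called 16.7% of all genes, the adjusted p was 0.00903.

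Beside Panx2, 7 of 8 pan-neuronal markers were higher in the 15-HETrE mean, and the list level differed by 0.99, without overlap between the groups. Its summed CPM ran from 1826 to 3064 in vehicle and from 3027 to 5802 in 15-HETrE libraries, and no marker was at 0. Panx2 minus the mean pan-neuronal level was -3.12, -3.21 and -2.56 in vehicle 1, 2 and combined and -3.21, -2.54 and -1.82 in 15-HETrE 1, unnumbered and combined. This difference overlapped between the groups, which Panx2 itself did not. The part of neuronal content in the level of Panx2 was not tested.

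Panx1, the widely expressed ATP-releasing pannexin, stood at 15.5, 14.7 and 18.3 CPM in vehicle 1, 2 and combined. In 15-HETrE 1, unnumbered and combined it stood at 15.9, 12.5 and 7.30 CPM (chromosome 9, 15002128 to 15045478), from 349, 210 and 54 reads. The groups overlapped, and only 15-HETrE combined lay well below the rest. The fitted difference was -0.47 (SE 0.47, 95% interval -1.51 to 0.58, adjusted p 0.773, limma), with 0.07 in the first prefix and -1.22 in the combined pair. As levels per kb, Panx2 exceeded Panx1 by ratios of 2.30, 1.25 and 1.94 in vehicle 1, 2 and combined and of 3.71, 4.96 and 18.9 in 15-HETrE 1, unnumbered and combined. The ratio did not overlap between the groups, as Panx2 did not, and its highest value came from the library lowest in Panx1.

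Composition was described over the 7 connexins, per kb of the longest coding transcript. Gjc3 and Gjb1, the oligodendrocyte connexins, made up 62.7%, 70.8% and 61.4% of their sum in vehicle 1, 2 and combined. They made up 92.1%, 87.5% and 38.3% in 15-HETrE 1, unnumbered and combined, so the 15-HETrE libraries held both the highest and the lowest shares. Gja1 and Gjb6 together made up 31.9%, 23.3% and 36.3% in vehicle and 6.41%, 11.5% and 60.7% in 15-HETrE libraries in the same order. The summed level of the 7 connexins ran from 129 to 261 CPM per kb in vehicle and from 153 to 303 in 15-HETrE libraries. These shares depend on the length taken for Gja1, 3182 bases here and 10257 over all its annotated exons. Per kb of all annotated exons, Gjc3 and Gjb1 would exceed Gja1 and Gjb6 in 15-HETrE combined.

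**Figure D4:**
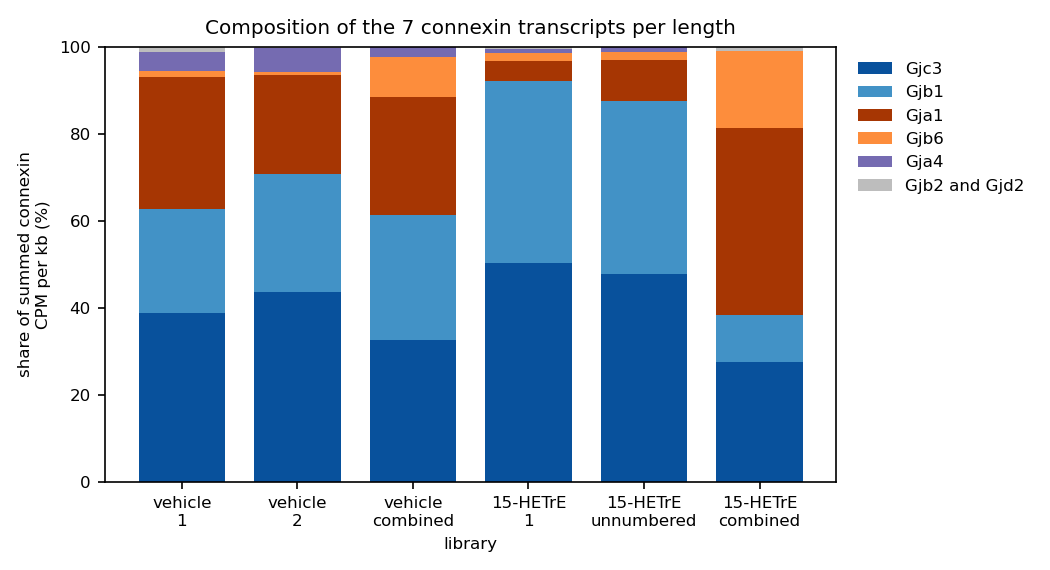
Share of each of the 7 connexins in their summed CPM per kb (vertical axis, %) for each of the 6 libraries (horizontal axis), as stacked bars. Gjc3 and Gjb1 (blues) fill 92.1% of the bar in 15-HETrE 1 and 38.3% in 15-HETrE combined, where Gja1 and Gjb6 (brown and orange) fill 60.7%. Lengths are those of the longest coding transcripts. Per kb of all annotated exons, Gjc3 and Gjb1 would exceed Gja1 and Gjb6 in 15-HETrE combined.

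Of the 14 other connexin and pannexin genes of the table, 3 passed the filter on low values, and 0 of these passed the test. Gjc1, a connexin of mural cells, stood at 32.1, 32.5 and 25.2 CPM in vehicle 1, 2 and combined and, in 15-HETrE 1, unnumbered and combined, at 4.28, 24.5 and 10.1 CPM, with 15-HETrE below without overlap, as for 8.32% of all genes (fitted difference -1.42, adjusted p 0.489, limma). Gje1 and Panx3 had no read in any library.

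Partners and the ATP pathway were read from lists, and 0 genes of any list passed the test. With library weights, under which 16.7% of all genes were called, Src, Cdh2 and Adora1 passed as higher in 15-HETrE libraries and Nedd4, Lrrc8a, Lrrc8c, P2ry14, Ada, Slc29a1, Enpp1 and Gjc1 as lower, with adjusted p from 0.00147 (Enpp1) to 0.0441 (Src). Where groups of a list gene are said below not to overlap, the share over all genes was 6.84% above and 8.32% below. Of 12 genes for scaffolds and regulators of connexins, 5 had fitted differences above 0 and 6 below, with Cav1 at 0.00 and a median of -0.03. Tjp1, the scaffold that binds the tail of several connexins, stood at 364 ± 10.01 CPM in vehicle and 351 ± 57.8 in 15-HETrE libraries (SD, n = 3 each), a difference of -0.07 (adjusted p 0.947, limma). Nedd4, a ubiquitin ligase that acts on Gja1 protein, stood at 969 ± 263 and 666 ± 68.0 CPM, and the kinase Src at 48.9 ± 5.75 and 87.8 ± 45.2 CPM; both overlapped between groups. Ctnnd1, a catenin of adherens junctions, did not overlap, at 186 ± 24.5 and 143 ± 20.3 CPM (adjusted p 0.635, limma).

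Other large-pore channels were 3 above 0 and 3 below among the 6 kept of 9, with a median of -0.07. The group of LRRC8 genes, whose products form volume-regulated anion channels and are related to pannexins, held the abundant members. Lrrc8b stood at 151 ± 36.8 CPM in vehicle and 213 ± 62.2 in 15-HETrE libraries, and Lrrc8c, without overlap, at 73.6 ± 9.95 and 46.7 ± 14.7 CPM (SD, n = 3 each; adjusted p 0.524, limma).

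Purinergic receptors were 6 above 0 and 6 below among the 12 kept of 18, with a median of -0.06. Adora1, the inhibitory adenosine receptor of neurons, stood at 89.2, 92.4 and 87.2 CPM in vehicle 1, 2 and combined and, in 15-HETrE 1, unnumbered and combined, at 138, 125 and 151 CPM. Its groups did not overlap, and the difference was 0.62 (SE 0.23, adjusted p 0.470, limma). P2ry14, a receptor for nucleotide sugars, also did not overlap, at 23.0 ± 3.72 and 9.84 ± 6.32 CPM (adjusted p 0.490, limma). P2rx7, an ATP-gated channel linked to Panx1 in other cells, overlapped, at 58.5 ± 22.7 and 43.3 ± 18.0 CPM.

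Among 10 enzymes and transporters of extracellular nucleotides, 3 were above 0 and 7 below, with a median of -0.23. Nt5e, which makes adenosine, stood at 35.2 ± 17.9 CPM in vehicle and 19.4 ± 4.01 in 15-HETrE libraries, Ada, which degrades it, at 13.1 ± 2.27 and 4.38 ± 3.95, and the adenosine transporter Slc29a1 at 24.4 ± 2.51 and 13.03 ± 4.45 (SD, n = 3 each). The groups of these 3 of 10 genes did not overlap, all with 15-HETrE below (8.32% of all genes); their adjusted p were 0.618, 0.517 and 0.551 (limma). Enpp1, a nucleotide pyrophosphatase, stood at 263 and 235 CPM in vehicle 1 and 2 but at 10.3 in vehicle combined, and at 10.8 to 106 CPM in 15-HETrE libraries.

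Genes with the profile nearest to a member were found as the root mean square of differences in log2(CPM + 1) over the 6 libraries, after each gene was centred on its mean. Nearest to Panx2 were Rab11fip4 (0.10 log2 units), Mturn (0.16) and Bend6 (0.20), and the nearest marker list was the pan-neuronal one (0.50). Nearest to Gjb6 were Slc39a12 (0.41), Pla2g7 (0.42) and Chrdl1 (0.47), with the astrocyte list at 0.70. Gja1 had no close neighbour, with Mt1, a metallothionein, at 0.53, Fam20a and Sdc4 at 0.58, and its nearest list, the microglial one, at 1.11. Nearest to Gja4 were Spc25 (0.26) and Casc5 (0.28), which encode kinetochore proteins, and Arhgdib (0.30), with the mural list at 1.00. Gjc3 was nearest to Efcab14 (0.07) and Gjb1 to Clasrp (0.17); both lay nearer to the sparsely read erythrocyte list (0.21 and 0.47) than to the oligodendrocyte list (0.32 and 0.49). Panx1 was nearest to Eif4e (0.06) and Gjb2 to Synpo2 (0.53); their nearest lists were the arterial endothelial one (0.34) and the excitatory neuron one (1.09). Genes that vary little lie close to many others on this measure, and likeness over 6 libraries that also differ in depth and name prefix is a description only.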

How the data were processed

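RNA of sorted cells was measured by RNA-seq in 6 libraries made with the Ovation SoLo kit, per the labels' protocols. Reads went through HISAT2, featureCounts, Trimmomatic and edgeR on mm10, per the submitters' processing notes, in no stated order; the sources used here give no versions, strand setting or annotation. The deposited signal is CPM that the authors scaled by a factor for each library. Its columns sum to 960982 to 1080354, and 100% of the values are whole multiples of the smallest value above 0 (tolerance 1e-04 reads), from which reads were recovered for edgeR and DESeq2. The planned test assumed CPM and was applied to this signal. Columns were assigned by name. No library was a copy of another: in every pair of 1 group, counts differed by a chi-square of at least 71.4 per gene.

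The filter took genes averaging 1 CPM or more (14523), and log2(CPM + 1), which understates changes of low genes, was tested: limma 3.58.1 (R 4.3.3) was fitted with treatment as the only term and a variance trend, two-sided; p-values were adjusted by Benjamini-Hochberg over these genes, with 0.05 as the threshold. SDs are over 3 libraries. Alternatives used edgeR 4.0.16, DESeq2 1.42.0 and other settings given below. The scripts were tested on simulated data. A gene with no read has a floor of 3 counts; floors cover counting error only.

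Members and lists were chosen with earlier results of these data known. Genes named are the 9 members, of each pathway list up to 4 with the smallest p and 2 with the highest mean, and the 3 genes (mean of at least 5 CPM) and the marker list nearest in profile to each member; not all that the rule takes are described, some are not reported here, and Gje1, Panx3 and Cav1 are named for their place in the family or list. Positions and lengths are from GENCODE M21 (GRCm38, the assembly of mm10), and promoter windows from RefSeq on GRCm38.p6, which matched 8 of 9 members. Motifs searched on both strands were the SOX core (ACAANG), the AP-1 site (TGANTCA), the TATA box (TATAAA), the GC box (GGGCGG), an E-box (CACGTG), the CREB site (TGACGTCA), and the palindromes of EBF factors and of nuclear factor I. Of the 50-base stretches of member transcripts, 0.115% (Gja1), 2.07% (Gjc3) and 0.283% (Gjd2) occur in another gene and 0% for the other 6.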

Additional observations from a re-analysis of the deposited data

How the results depend on the processing

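Over all genes limma called 0, and the count was 165 with DESeq2, 2425 with library weights, 8 with a term for the name prefix and 204 without both combined libraries; leaving out 1 library gave 0 to 110, the highest without vehicle combined. Of the 8 connexins and pannexins tested, 0 passed under every alternative except library weights. With these weights, vehicle combined weighted least, 3 were called (Gja4 and Gja1 lower, Panx2 higher), where 16.7% of all genes were called. Without both combined libraries, chosen for this count after seeing the data, 5 of 7 genes tested did not overlap between groups (Gja1, Gjb6, Gjb1, Gja4 and Panx2), against 2 of 8 in all libraries. The share of all genes without overlap also rose, from 6.84% above and 8.32% below in all libraries to 21.2% and 25.8%. The sign of 4 members turned. Gja1 was at 0.0648 with edgeR and 0.0623 with DESeq2, and at -1.97 to 0.0832 leaving out 1 library. Gjb1 was at -0.10 with the prefix term and at -0.11 to 0.60 leaving out 1 library. Gjb2 was at -0.47 with a pseudocount of 0.1, at -0.67 with library weights and at -0.29 to 0.67 leaving out 1 library. Gjb6 was at -0.20 to 2.33 leaving out 1 library. Of other genes named, Adk (-0.56 to 0.11) and Tjp1 (-0.15 to 0.0783) turned when 1 library was left out. The cause of these turns was not tested. Panx2, Gja4, Gjc3 and Panx1 kept their sign under all alternatives run; Gja4 was at -3.56 with a pseudocount of 0.1 and -1.29 with 5. Pseudocounts of 0.1 and 5, no filter or one at 5 CPM, and a median-of-ratios rescaling left every count at 0. A rescaling with the factors of edgeR (TMM) returned the values of the main fit, so it is not a separate check. Depth sets the floor of 3 counts at 0.135 to 0.540 CPM; the 0 reads of Gjb2 and Gjd2 in some libraries did not follow depth. No paired analysis was possible because the column names share a single replicate number between the groups; the term for the name prefix is a block on names, not on replicate numbers.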
